A study of Homo sapiens with 2 samples.

Results

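The sites described here are the genomic positions at which a ZMYND8 antibody gave a called summit in both parental and ZMYND8 knockout cells, apart from 1 crowded interval at 15q24.2. They were chosen by position: a summit of the knockout list was taken when a summit of the parental list lay within 200 bp on the same chromosome, and the stretch of chromosome 15 from 75.65 to 75.76 Mb (hg19) was left out. This gave 274 sites of the 385 summits in the knockout list, paired with 274 different summits of the 45924 in the parental list. The interval left out held 19 knockout summits, 17 of them with a parental summit within 200 bp, and a further 92 knockout summits elsewhere had no parental summit that close. Since both lists chose the sites, the number shared, the distances and the scores below are descriptions and carry no test.

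The study mapped ZMYND8 by ChIP-seq, which sequences the DNA that an antibody pulls down with its protein. The cells were MDA-MB-231 mammospheres; MDA-MB-231 is an established triple-negative breast cancer line, and mammospheres are floating cultures that enrich for stem-like cells. There was 1 library from parental cells, whose genotype label is wildtype, and 1 from cells labelled ZMYND8 knockout, both grown as spheres and both precipitated with the same ZMYND8 antibody. No drug treatment, time course or clone number is given in the labels, and the labels do not say how the knockout was made. The names of both lists mark them as replicate 2, and no other replicate was analysed here. With 1 library for each genotype, no difference between genotypes could be tested, and read depth is unknown. Each summit carries a score, the authors' −log10 p or q value, which grows with read depth and with the enrichment over the control; it ranks summits within a list and does not compare binding between lists.

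ZMYND8 is a chromatin reader: its bromodomain, PHD finger and PWWP domain bind modified histones and DNA, and its MYND domain recruits partner proteins, among them repressor complexes. ChIP in cells that lack the target is a common control for an antibody, and a summit called there too shows signal at that position in a library labelled as lacking the protein. Whether any ZMYND8 protein was left in the knockout spheres was not tested.

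At 2 of the sites the summit lay just inside the transcription start of a gene with an available hg19 transcript model. A promoter sequence is shown for each, that of the neighbouring gene ENO1 at the first and of KEAP1 at the second. Neither printed stretch holds a summit. Transcript models were available for 397 genes only, so most sites have no gene assigned. The first site, chr1:8939136, lay within ENO1-AS1, a long non-coding RNA that starts back to back with ENO1, the gene of the glycolytic enzyme enolase. The knockout summit was 242 bp and the parental summit 394 bp downstream of the ENO1-AS1 start at chr1:8938894. The second, chr19:10613322, lay within KEAP1, the adaptor that directs the antioxidant regulator NRF2 to degradation. There the knockout summit was 125 bp and the parental summit 95 bp downstream of the start of the sampled transcript at chr19:10613447. The sequences are RefSeq's, from build GRCh38.p14, each the 250 bases before the outermost start of the gene in its own direction, with CpG pairs in capitals.
ENO1: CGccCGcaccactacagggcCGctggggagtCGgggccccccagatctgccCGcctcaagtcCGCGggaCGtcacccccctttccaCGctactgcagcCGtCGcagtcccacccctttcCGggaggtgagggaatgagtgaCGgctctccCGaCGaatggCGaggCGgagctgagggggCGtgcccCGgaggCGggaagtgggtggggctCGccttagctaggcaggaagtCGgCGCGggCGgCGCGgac
KEAP1: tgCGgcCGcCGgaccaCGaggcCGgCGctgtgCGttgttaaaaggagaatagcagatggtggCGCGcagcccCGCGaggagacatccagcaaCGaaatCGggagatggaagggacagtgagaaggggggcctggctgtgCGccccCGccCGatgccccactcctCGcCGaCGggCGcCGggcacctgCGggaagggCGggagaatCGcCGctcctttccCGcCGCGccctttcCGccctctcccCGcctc

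The ENO1 stretch is chr1:8878687-8878936 on the minus strand and holds 27 CpG pairs at 72% G and C. The KEAP1 stretch is chr19:10503357-10503606 on the minus strand and holds 30 CpG pairs at 70.4% G and C. Over all 35116 promoters of the same length in the RefSeq table the medians were 11 CpG pairs and 58%, and 82.3% and 87.6% of promoters had fewer CpG pairs than ENO1 and KEAP1. In that build the ENO1 and ENO1-AS1 starts are 149 bases apart, and the first 102 bases printed for ENO1 belong to ENO1-AS1. The summits of that site lay 242 and 394 bp past the ENO1-AS1 start in hg19, farther than those 102 bases. The stretch printed for ENO1 therefore does not reach them. RefSeq lists 2 KEAP1 starts 585 bases apart. The span of the sampled transcript, 16647 bases, equals that from the inner start to the end of the gene, so the stretch printed for KEAP1 lies upstream of the outer start and not beside the summit.

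The ENO1-AS1 site scored 13.2 in the knockout list and 21.7 in the parental list, rank 202 of the parental list, with 17 other parental summits within 100 kb. The KEAP1 site scored 3.27 in the knockout list and 18.4 in the parental list, rank 390, with 24 others within 100 kb. Only the ENO1-AS1 site of these was among the 27 with a knockout score of at least 10. A pair of further sites lay within 10 kb of a sampled transcript. One, chr7:915932, was 1361 bp past the end of SUN1 and 59652 bp from its start, with scores of 3.49 in the knockout and 32.2 in the parental list. SUN1 encodes an inner nuclear membrane protein that links the nucleus to the cytoskeleton, and the next coding gene past its end in RefSeq order is GET4. The other, chr8:128806914, was 1294 bp upstream of the microRNA gene MIR1204, which RefSeq places inside the non-coding gene PVT1 with MYC as the nearest coding gene on one side, with scores of 8.52 and 15.7. Within 1 kb of a sampled start lay 2 of 274 sites, 0.73% (exact binomial 95% interval 0.0885 to 2.61), against 0.551% (0.486 to 0.623) of all parental summits outside the interval and 0.719% (0.576 to 0.888) of the highest scoring 25% of them. With so few sampled genes, a difference between these shares was not detectable.

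Other sites could be placed only between sampled genes, with the genes between taken from RefSeq gene order and with no position in hg19. Of the 213 sites with a sampled gene on either side and none over them, 12 had at most 20 protein-coding genes between, and the median was 102. Chromosome 20 held 5 sites between NCOA5 and STAU1, a stretch of 3011 kb whose 16 coding genes include ZMYND8, the gene targeted in the knockout, and NCOA3, a nuclear receptor coactivator. These 5 were chr20:45752848, chr20:45945713, chr20:45946447, chr20:45988574 and chr20:47538368, and which gene any of them lies in was not determined. The pair at chr20:45945713 and chr20:45946447, 734 bp apart, had parental scores of 41.2 and 26.7, knockout scores of 5.0 and 2.49, and 55 other parental summits each within 100 kb. The site chr20:45988574 had 57 such neighbours, whereas chr20:45752848 had 2 and chr20:47538368 had 4. Chromosome 4 held 1 site, chr4:75024060, in a stretch of 1802 kb, 176316 bp past PF4 and 1625646 bp before USO1. The 15 coding genes of that stretch include the chemokines CXCL2, CXCL3 and CXCL5 and the growth factors EREG and AREG. The scores of the site were 6.80 in the knockout and 7.77 in the parental list. The site chr9:100747635, with scores of 10.3 and 30.1, lay in a stretch of 1519 kb, 287944 bp past XPA and 1231072 bp before ALG2. Among the 13 coding genes of that stretch is the receptor gene TGFBR1, the last in order and thus at the ALG2 end. Which of these genes lies nearest to either site was not determined. The genes named within these stretches were chosen after their sites were seen.

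Sharing was rare over the parental list as a whole and far more frequent among its strongest summits. Outside the interval, 275 of 45901 parental summits were matched by a knockout summit at that distance, which is 0.599%, and among the highest scoring 25% the count was 221 of 11954, or 1.85%. Of the 85 parental summits ranked 1 to 100, 27 were shared, 31.8% (22.1 to 42.8). The share was 9.23% (7.53 to 11.2) for ranks 101 to 1000 and 1.72% (1.37 to 2.13) for ranks 1001 to 5000. From rank 11482 to the end of the list it was 0.159% (0.120 to 0.208). These 4 intervals do not overlap. The class between, ranks 5001 to 11481, had 0.293% (0.174 to 0.463), whose interval overlaps that of the lowest class. The intervals cover counting error only.

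**Figure D1:**
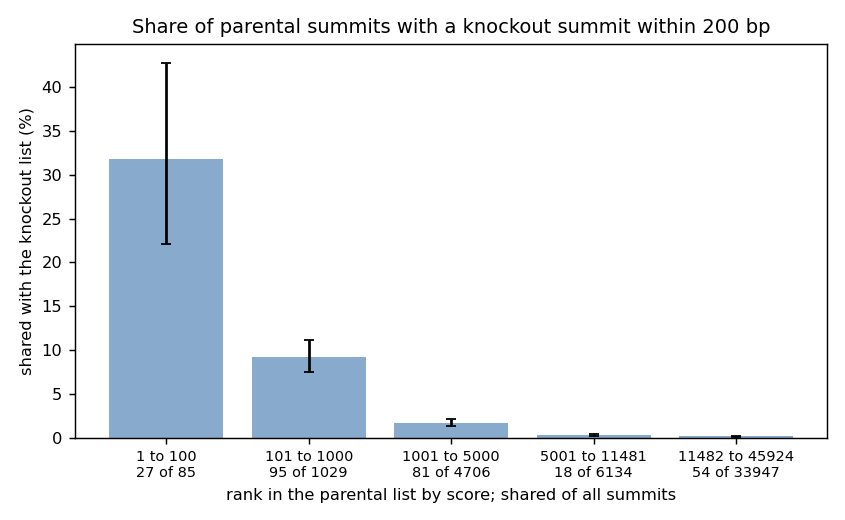
Share of parental summits outside the 15q24.2 interval with a knockout summit within 200 bp (vertical axis, percent), for classes of rank by score in the parental list (horizontal axis, with the shared and total counts). Bars are shares and error bars exact binomial 95% intervals; the share goes from 31.8% in the highest class to 0.159% in the lowest.

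Seen from the shared sites, 221 of 274 had a parental partner in the highest scoring 25%, 80.7% (75.5 to 85.2). Of the 274, 122 had one with a rank of at most 1000, 44.5% (38.5 to 50.6). Tied summits take the best rank, so that class holds more than 1000 summits. The parental partner scored 1.45 at the lowest, 12.2 at the median and 150.5 at the highest, where the median of the whole parental list was 3.79. For the other 92 knockout summits, the nearest parental summit was in the highest scoring 25% in 64.1% (53.5 to 73.9). The knockout scores of the shared sites were 1.90 at the lowest, 4.66 at the median (order-statistic 95% interval 4.33 to 5.0) and 160.3 at the highest. The other 92 had a median of 4.06 (3.49 to 4.48) and a highest score of 427.6, rank 1 of the knockout list. Of the shared sites, 152 of 274 (55.5%) scored under 5 in the knockout list, and 80 sites had one of the 5 commonest score values, so that many sites are tied and their order within the knockout list is coarse.

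Across the 274 sites the knockout score followed the parental score only loosely, with Pearson's r of 0.152 on log10 scores and Spearman's rho of 0.144. The sites share their 2 libraries, so this describes these lists alone. Among the shared sites, the highest knockout score was at chr3:17443598 in 3p24.3, at 160.3 in the knockout list, rank 13 of that list, and 49.8 in the parental list, rank 26, with 1 other parental summit within 100 kb. The next was chr3:45106882 in 3p21.31, at 37.2 in the knockout list, rank 22, and 150.5 in the parental list, rank 4, with 53 others within 100 kb. It lay 29319 bp past the end of CLEC3B, the gene of the plasminogen-binding protein tetranectin, and the next coding gene in RefSeq order is CDCP1, which encodes a cell surface protein. So among the shared sites the one ranked highest in the knockout list was not the one ranked highest in the parental list, and one stood almost alone while the other lay in a crowded stretch.

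The 10 sites with the strongest parental partners had both high and low knockout scores. The parental summit at chr4:184269961 scored 68.1 and its knockout partner 4.66. The corresponding values were 66.3 and 2.88 at chr16:87903290 in 16q24.2, and 64.5 and 3.49 at chr8:94886646 in 8q22.1. At chr17:80175951 in 17q25.3 they were 51.8 and 13.2, and at chr18:12948552 in 18p11.21 they were 45.3 and 17.9. Of the 10, 4 were also among the 20 of all 274 sites with the highest knockout scores. They were the 2 on chromosome 3, the one in 17q25.3 and the one in 18p11.21. The remaining 6 had knockout scores between 2.88 and 6.43.

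**Figure D2:**
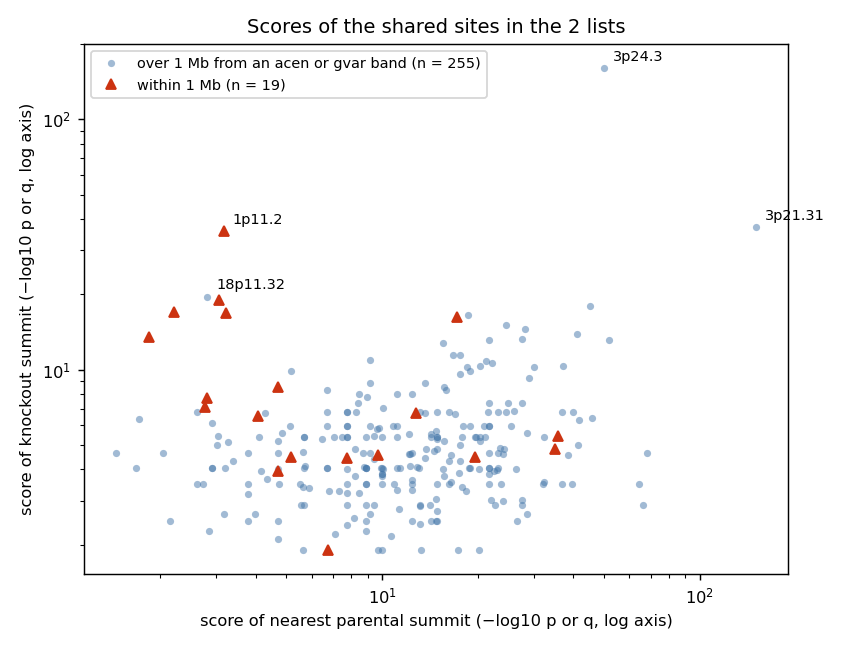
Score of each of the 274 shared sites in the knockout list (vertical, −log10 p or q, log axis) against the score of its nearest parental summit (horizontal, same unit, log axis). Circles are sites over 1 Mb from an acen or gvar chromosome band and triangles the 19 sites within 1 Mb; a group of triangles lies at the upper left, with high knockout and low parental scores.

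The opposite pattern, a high knockout score at a weak parental summit, was found mostly beside centromeres under the 2 cutoffs used here. Of the 6 sites with a knockout score of at least 10 and a parental score below the parental median, 5 lay within 1 Mb of a band stained as centromere (acen) or as variable heterochromatin (gvar). With the knockout cutoff alone, 6 of 27 sites lay that near. The knockout score was above the parental score at 37 sites, 9 of them that near and 28 farther away, though scores do not compare between lists. The strongest of the 6 was chr1:121485275 in 1p11.2, 14726 bp from such a band, at 35.9 in the knockout and 3.17 in the parental list. It had no other parental summit within 100 kb. In 10q11.21 there were 2: chr10:42597036 at 18.9 and 3.07, and chr10:42385219 at 17.0 and 2.21. The others were chr7:61968987 in 7q11.21 at 16.8 and 3.22, and chr6:58777622 in 6p11.1 at 13.6 and 1.84. The sixth, chr18:108242 in 18p11.32, at 19.6 and 2.81, was far from any such band but 108242 bp from the end of the chromosome. Centromeric and subtelomeric sequence is rich in repeats, where reads from many copies can be placed at the few copies in the assembly; the lists hold no read mapping values, so its part in these sites was not tested.

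In all, 19 shared sites on 9 chromosomes lay within 1 Mb of such a band, 6.93% (4.23 to 10.6), against 1.55% (1.44 to 1.67) of all parental summits and 1.46% (1.25 to 1.69) of the highest scoring 25%. Among the other 92 knockout summits the share was 9.78% (4.57 to 17.8), so it was not particular to the shared sites. The 1 Mb distance was set after the sites had been seen. Many of the 19 sites share a locus: 5 in 10q11.21, 3 in 6p11.1, and 2 each in 2p11.1 and 21p11.2. The interval treats them as separate sites and is therefore too narrow, and the share by locus was not computed. In these 19 sites the knockout score was 1.90 at the lowest, 6.74 at the median and 35.9 at the highest, and the parental score 1.84, 4.71 and 35.9. In the other 255 the medians were 4.60 and 12.4. Without the 19 sites, Spearman's rho between the lists was 0.224.

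The sites were scattered, and few lay side by side. Joined at gaps of up to 10 kb, the 274 sites made 265 loci, 260 of which held 1 site. The locus with most was chr10:42384727-42396155 in 10q11.21, where 5 sites lay within 11428 bp, with knockout scores between 1.90 and 17.0 and parental scores between 2.21 and 6.78. In 6p11.1, chr6:58776840-58778266 held 3 sites. Of the remaining 3 loci with 2 sites each, chr2:91844198-91844579 in 2p11.1 and chr21:9826903-9827370 in 21p11.2 were again in acen or gvar bands, and the fifth was the 20q13.12 pair between NCOA5 and STAU1. At chr21:9826903 the scores were 4.82 in the knockout and 34.9 in the parental list, and at chr21:9827370 they were 16.3 and 17.2, so that the higher summit of the pair was not the same one in both lists. Of the 862 hg19 bands, 171 held a site and 117 held exactly 1. The median gap between successive sites on a chromosome was 2982802 bp. No background was computed for these counts, so they are a description.

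Chromosome 20 held the most sites, 31 of 274, 11.3% of the sites where it held 4.10% of all parental summits and 4.75% of the highest scoring 25%. Of its 568 parental summits in that top class, 28 were shared, 4.93% (3.30 to 7.05), against the 1.85% over all chromosomes. Chromosome 14 followed with 18 of 428, 4.21% (2.51 to 6.57). For each of these 2 chromosomes the interval lay above 1.85%; for chromosome 12, with 4 of 496 or 0.806% (0.220 to 2.05), it included 1.85%. Among the other 92 knockout summits, chromosome 20 held 10, 10.9% (5.34 to 19.1), close to its share of the shared sites (7.82 to 15.7), so its excess over the parental list was not particular to them. Chromosome 14 held 2 of the 92, 2.17% (0.264 to 7.63), and 6.93% (4.23 to 10.6) of the shared sites, with intervals that overlap. Chromosomes 20 and 14 were singled out from 23 after the counts were seen. Their sites also count in the 1.85%, and the intervals cover counting error only, so they are no test of a chromosome.

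**Figure D3:**
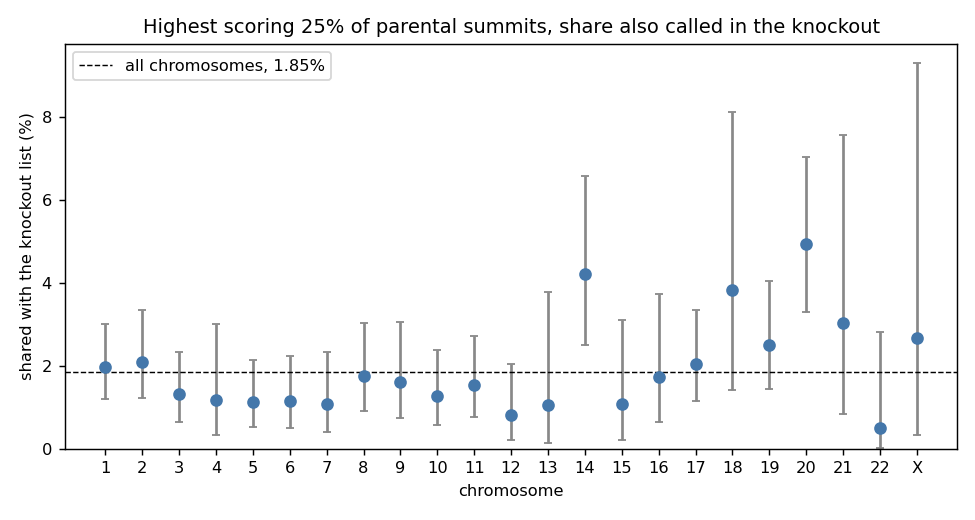
Share of the highest scoring 25% of parental summits that also was called in the knockout (vertical, percent), by chromosome (horizontal). Points are shares, bars exact binomial 95% intervals and the dashed line is the 1.85% of all chromosomes; chromosome 20, at 4.93%, is the highest.

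The chromosome 20 sites ran from chr20:19998172 to chr20:62317821, 28 of them on the long arm, in 30 loci and 11 bands. Their knockout scores were low, 1.90 at the lowest, 4.08 at the median and 10.8 at the highest, while their parental scores were 1.68, 17.0 and 41.2. The bands 20q11.23, 20q13.12 and 20q13.13 held 5 sites each. In 20q11.23, 5 of the 43 parental summits in the highest scoring 25% were shared, 11.6%, and in 20q11.22, 4 of 41, 9.76%. Over the whole chromosome the share was 4.93%. Among the 11 bands it ran from 0 of 9 in 20q13.31 to 1 of 5 in 20p11.1. It was 1 of 51 in 20q11.21, 1.96%, and 3 of 93 in 20q13.33, 3.23%. The 19 sites of chromosome 14 were all on the long arm, each in a locus of its own, between chr14:32493009 and chr14:105864680, with knockout scores from 2.49 to 10.4 around a median of 3.76. On both chromosomes the sites were thus many and spread along the arm. The median knockout score was 4.66 over all 274 sites and 4.06 for the other 92 knockout summits. Low scores were therefore not particular to these chromosomes.

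By band, 8q24.3 held the most sites, 8, and also 1236 parental summits; 4 of its 274 summits in the highest scoring 25% were shared, 1.46%, beside 1.85% over all chromosomes. The bands 10q11.21 and 19p13.2 held 7 each. In 10q11.21 there were 100 parental summits in all, and in 19p13.2, the band of KEAP1, there were 595. The strongest knockout score in 19p13.2 was 14.6, at chr19:10947358, whose parental partner scored 28.3. Light (gneg) bands, which are gene-rich, held 63.5% (57.5 to 69.2) of the sites and 63.9% (63.4 to 64.3) of all parental summits.

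At the median, parental summits were about as dense around the shared sites as around any parental summit. A neighbour within 10 kb was less frequent than in the highest scoring 25%, the class that holds most of the parental partners. Within 100 kb of a site there were 9 other parental summits at the median (7 to 11), with a range of 0 to 110. The median was 10 around all parental summits and 11 (10 to 11) around the highest scoring 25%. Another parental summit lay within 10 kb of 76.3% (70.8 to 81.2) of the sites, against 75.4% (75 to 75.8) of all parental summits and 82.4% (81.7 to 83.1) of the highest scoring 25%. The 92 other knockout summits had 7 (5 to 10) other parental summits within 100 kb at the median. A site needs a parental summit to be shared, so these densities count only the summits beyond that partner.

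**Figure D4:**
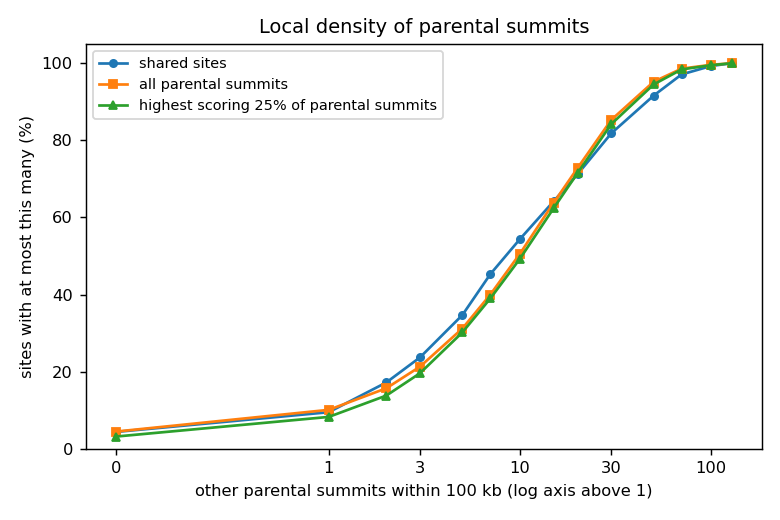
Percentage of sites (vertical) with at most a given number of other parental summits within 100 kb (horizontal, log axis above 1), for the 274 shared sites, all parental summits and the highest scoring 25% of them. The medians are 9, 10 and 11. At most 7 such neighbours are found at 45.3%, 40% and 39%, and at most 50 at 91.6%, 95.2% and 94.5%.

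The spread around that median was wide. The 6 most crowded sites, those with 85 or more such neighbours, were all in the last band of a long arm. In 8q24.3, chr8:145733990 had 110 other parental summits within 100 kb, chr8:145616227 had 104 and chr8:145748487 had 100. In 20q13.33, chr20:60888522 and chr20:60934267 had 85 each, a value that chr8:144922802 in 8q24.3 shared. Of these 6, only chr8:145733990 scored over 10 in the knockout list, at 13.3, with 27.6 in the parental list; the other 5 scored between 2.10 and 4.81. At the sparse end, 12 sites had no other parental summit within 100 kb. That is 4.38% of the sites, against 4.47% of all parental summits and 3.18% of the highest scoring 25%. Besides chr1:121485275, these included chr1:111506118, chr14:88237644, chr15:57025986 and chr16:14580917, with knockout scores from 2.49 to 8.04 and parental scores from 6.80 to 20.9. Sites with 50 or more neighbours made up 8.76% of the shared sites, 5.08% of all parental summits and 5.83% of the highest scoring 25%. Within the highest scoring 25%, the share called in the knockout was 2.37% (1.09 to 4.45) with no neighbour, 1.22% (0.844 to 1.70) with 10 to 19 and 2.73% (1.65 to 4.22) with 50 or more, and showed no steady order.

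The summits of the lists lay close together at most sites. The distance was 0 bp at the lowest, 40 bp at the median (35 to 47) and 200 bp at the highest, with 156 sites within 50 bp and 221 within 100 bp. The knockout summit was at the higher coordinate in 129 sites, at the lower in 144 and at the same base in 1. In the 19 sites near acen or gvar bands the median distance was 13 bp (5 to 30), and in the other 255 it was 42 bp (37 to 52). Many of the 19 share a locus, so their interval is too narrow.

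**Figure D5:**
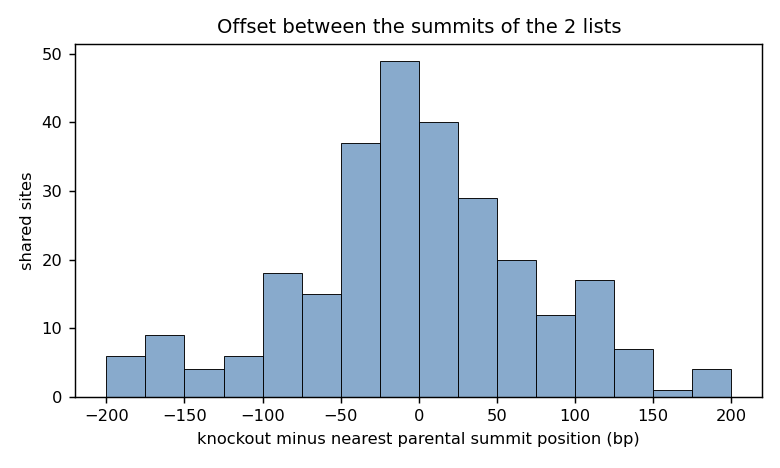
Number of shared sites (vertical) by the position of the knockout summit minus that of its nearest parental summit (horizontal, bp, bins of 25 bp). Most sites fall within 50 bp of 0, on either side.

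The limit of 200 bp cut through a tail of distances, and the number of sites depends on it. It was 221 at a limit of 100 bp, 274 at 200 bp and 328 at 500 bp. Just inside it were chr7:17338841 at 200 bp, chr20:36662096 at 194 bp, chr6:43197120 and chr9:100747635 at 191 bp, and chr20:60888522 at 190 bp, with knockout scores from 3.49 to 10.3. Just outside were chr20:58514707 at 203 bp, chr16:68298671 at 204 bp, chr2:70369473 at 207 bp, chr19:18700246 at 209 bp and chr20:42380523 at 211 bp, with knockout scores from 3.01 to 4.75. Of the 92 knockout summits outside the limit, 67 lay within 1000 bp of a parental summit and 25 farther away.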

How the data were processed

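ChIP-seq summits of ZMYND8 were analysed from 1 parental and 1 ZMYND8 knockout library of MDA-MB-231 spheres, grouped by labelled genotype. Per the submitters' processing notes the tools were MACS2 2.0.10, Bowtie2 2.2.3, Picard 1.127 and FastQC 0.11.2 and the build hg19; settings are not given. Each deposited list gives a position and a −log10 p or q score per summit; which of the 2 it is, the control and the depth are not given in the sources, and each list was called separately. Deeper sequencing raises scores and lengthens a list.

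Positions are 1-based hg19. Summits within 200 bp were paired, and neighbours counted within 10 kb, 100 kb and 1 Mb. Ranks give ties the best place. Shares carry exact Clopper-Pearson intervals and medians order-statistic intervals, at 95% and for counting error only. The pairing was tested on simulated lists. No test between genotypes was possible. Bands came from circlize 0.4.16, and 597 hg19 transcripts of 397 genes from example sets in pyranges 0.1.4 and GenomicFeatures 1.54.1; these packages are outside the deposited data, and the sets are no random sample. Symbols, gene order and promoters came from RefSeq GRCh38.p14; coordinates were not converted. No full hg19 annotation was used here, so planned gene lists were not counted.

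Named sites were the 20 highest knockout scores, the 10 highest parental scores, knockout scores of at least 10 at parental scores below the median, the 5 loci with most sites, the 5 densest and 5 sparsest sites, and the 5 on each side of 200 bp, ties going by chromosome and position; not all are printed. Named genes were sampled genes within 10 kb; CLEC3B and genes between sampled genes were added later. The members, lists and rules were chosen with earlier results of these data known. The software was scipy 1.17.1, numpy 2.4.6, pandas 2.3.3 and matplotlib 3.10.9 under Python 3.11.15. Alternatives covered sharing distance, a score minimum, bands, merging and windows.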

Additional observations from a re-analysis of the deposited data

How the results depend on the processing

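No paired analysis was possible because each genotype has 1 library. A score of at least 5 in both lists left 102 sites in place of 274; 98.0% of these had a parental partner in the highest scoring 25%, and their median scores were 6.78 in the knockout and 16.5 in the parental list, which follows from the minimum itself. The median number of other parental summits was 2 within 10 kb and 69 within 1 Mb, where the window sets the count. Under the other settings (sharing within 100 or 500 bp, no sites in acen, gvar or stalk bands, loci merged, other windows at starts), values stayed within their counting intervals and counts within 1.5 times, also without the sites within 1 Mb of such bands, an alternative chosen after seeing the data. Depth is unknown, so no list length or score could be corrected for it.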
